A study of Mus musculus with 13 samples.

Results

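The clustered core and linker histone genes were examined in poly(A) RNA from mouse embryonic fibroblasts. All table rows with a symbol beginning Hist1h, Hist2h, Hist3h or Hist4h were taken, which gave 68 of the 25965 genes listed. They comprised 6 H1, 19 H2A, 18 H2B, 12 H3 and 13 H4 genes. GENCODE types Hist1h2al, counted here as H2A, as a processed pseudogene. It matches the Hist2h2bb row, counted as H2B, to a long noncoding RNA (Gm42743). Both were kept in the counts and sums of their class. The symbol alone chose them, so no measured value entered the choice.

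The cells were primary female XXist∆A/XPGK fibroblasts from mid-gestation embryos, a genotype that the labels give to every library. Retroviruses delivered a short hairpin, infected cells were selected with puromycin, and RNA was taken on day 7. Where used, 5-azacytidine (5-aza), an inhibitor of DNA methylation, was added on day 3 for 24 h. The 4 groups of 3 libraries combined either kind of hairpin, control or Setdb1, with 5-aza or with no drug. Setdb1 is a methyltransferase of lysine 9 of histone H3. In each group, replicate 1 carried one hairpin (Luciferase in controls, shSetdb1.6 in Setdb1 groups), and replicates A and B carried another (non-silencing or shSetdb1.4). The labels give the letters A and B only, and the number 1 is used here for the Luciferase and shSetdb1.6 libraries. According to the study's text, cells given Setdb1 hairpins also carried a gene-trap allele of Setdb1, while cells given the non-silencing hairpin were wild type. The genotype behind the Luciferase libraries is not given, and hairpin and genotype cannot be told apart. A further 5-aza library, named PGK_5aza and with no hairpin in its labels, belonged to no group. The study's text describes a PGK sample from which variants of the PGK X chromosome were taken. Whether this library is that sample is not stated. Nothing states whether replicates came from separate embryos, so p-values measure the spread between these libraries.

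Replication-dependent histone genes lie in clusters, mostly lack introns and are expressed mainly while DNA is replicated. Their mRNAs end just after a short stem-loop bound by the protein Slbp, in place of a poly(A) tail. Some of these genes also have a poly(A) signal farther downstream, and polyadenylated forms are known from differentiated cells. Replacement histones are encoded elsewhere, and among them the mRNAs of H3f3b and H2afz have ordinary poly(A) tails. The values below therefore describe the part of histone RNA retained in a poly(A) library, not total histone mRNA.

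The 3′ stem-loop, which decides how these mRNAs normally end, was found in a GENCODE transcript model of 44 of the 68 genes. One example of each version is printed as DNA, 5′ to 3′ on the gene's strand, with 5 flanking bases on each side. Capitals mark the stem-loop made of paired arms of 6 bases around a loop of 4. Coordinates are GRCm38 and cover the capitals. They are Hist1h1c chr13:23739512-23739527 (+), Hist1h3e chr13:23561903-23561918 (-), Hist2h2ac chr3:96220418-96220433 (-), Hist1h4h chr13:23531458-23531473 (+), Hist1h4i chr13:22040966-22040981 (-) and Hist1h4j chr13:21735437-21735452 (+).
Hist1h1c: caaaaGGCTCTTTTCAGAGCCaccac
Hist1h3e: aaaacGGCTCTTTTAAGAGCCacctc
Hist2h2ac: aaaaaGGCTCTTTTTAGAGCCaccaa
Hist1h4h: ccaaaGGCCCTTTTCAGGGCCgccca
Hist1h4i: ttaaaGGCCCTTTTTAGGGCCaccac
Hist1h4j: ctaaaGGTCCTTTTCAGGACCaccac

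The Hist1h1c version was the commonest, with 26 genes, none of them H4. The Hist1h3e version was shared by 6 genes and the Hist2h2ac version was seen in 1. H4 genes carried only the other 3 versions, in 7, 2 and 2 genes, and no gene of another class carried those.

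Histone RNA was a small part of every library. The 12 hairpin libraries held 36.4 M to 51.3 M reads in genes, and the ungrouped library held 17.4 M. Histone genes took 0.0299% to 0.0332% of these reads in the hairpin libraries and 0.0229% in the other. Levels are given in RPM, a gene's reads scaled to M reads of the library, and 1 read was worth 0.017 to 0.0239 RPM in the hairpin libraries. Summed over all 68 genes, control libraries averaged 268.1 ± 7.43 RPM (SD, n = 3) and control libraries with 5-aza 275 ± 3.78 RPM. Setdb1 hairpin libraries averaged 275.6 ± 12 RPM, and 280.5 ± 4.59 RPM with 5-aza. Setdb1 mRNA averaged 46.2 ± 0.103 RPM in control libraries against 14.1 ± 1.72 RPM in Setdb1 hairpin libraries, and 43.4 ± 0.631 against 12.9 ± 2.16 RPM with 5-aza.

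A few genes held most of the signal. Hist1h2bc alone gave 27.2% of the summed level over the 12 hairpin libraries. With the linker histone gene Hist1h1c and Hist1h2ai it gave 53.8%, and the 10 highest genes gave 79.6%. Of the 68 genes, 30 averaged 1 RPM or more and 6 averaged 10 RPM or more. 6 genes had at most 3 reads in each hairpin library. Among these was Hist1h2ba, the testis H2B gene, with 0 reads in all of them, which allows up to 3 reads per library. Hist1h1t, the testis H1 gene, had at most 1 read. These limits cover counting error only.

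Class levels were uneven. H2B genes summed to 111.6 ± 11.8 RPM (SD over the 12 hairpin libraries) and made up 40.6% of the histone signal. H2A genes summed to 79.9 ± 12 RPM, H1 genes to 49.7 ± 3.45 RPM and H3 genes to 25.9 ± 1.88 RPM. The 13 H4 genes together reached only 7.65 ± 1.11 RPM, or 2.79%, and the highest of them, Hist1h4j, averaged 2.02 RPM. After Hist1h1c, the highest H1 gene was Hist1h1d (4.82 to 5.74 RPM). Hist2h3c1 and Hist2h3c2 led the H3 genes (6.18 to 10.6 and 4.15 to 5.53 RPM), and Hist1h4m followed Hist1h4j (1.24 to 2.18 RPM). Histone octamers contain the 4 core classes in equal amounts, a proportion that the poly(A) levels of these genes did not show.

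**Figure D1:**
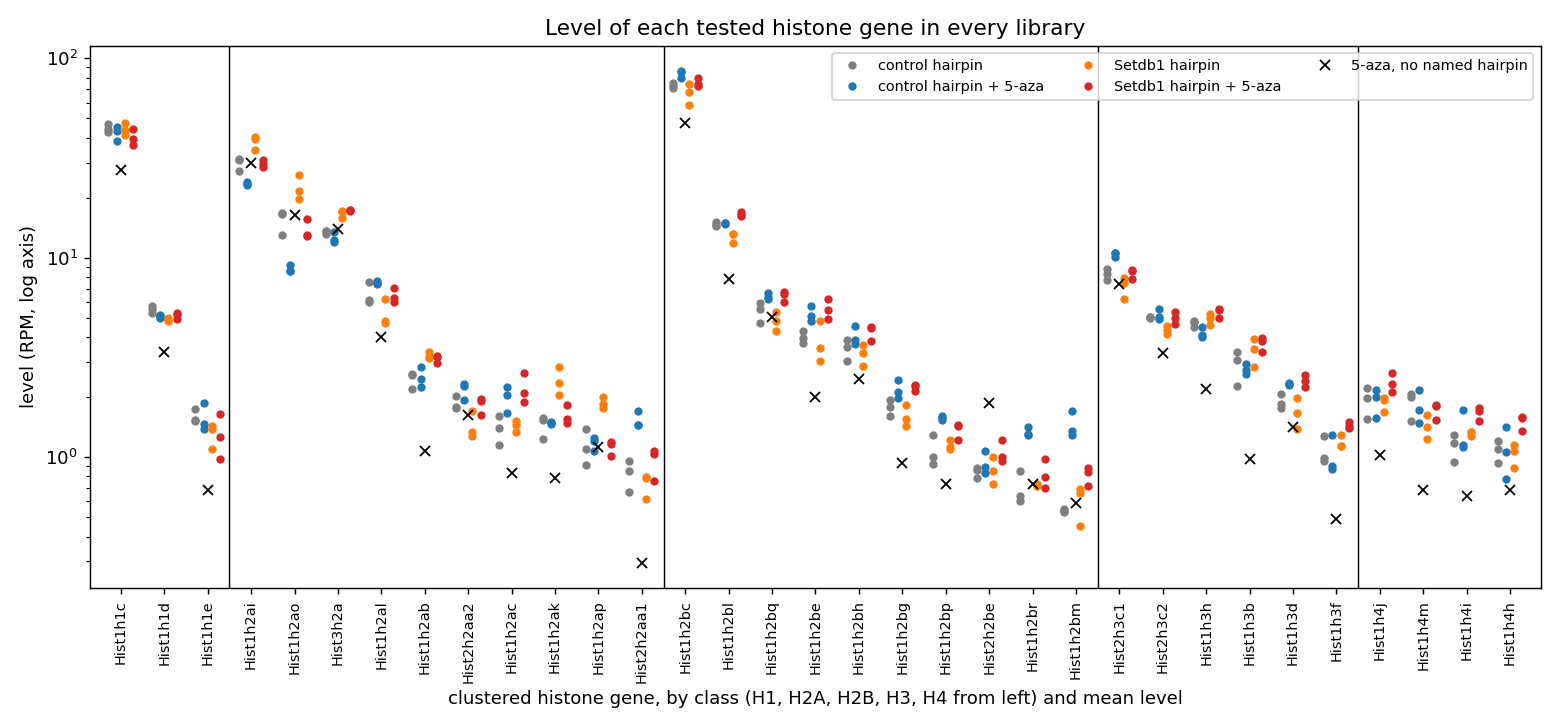
Level of each of the 33 tested histone genes in every library, in RPM on a log axis, ordered by class and mean level, with 1 dot per library coloured by group, while crosses mark the ungrouped 5-aza library. Hist1h2bc is the highest gene (58.2 to 86.8 RPM in the hairpin libraries), and Hist1h2ao is lowest in the 3 control libraries with 5-aza.

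Corrected for length, the order changed. Hist1h2bc remained first, at 64.7 RPM per kb over its 1156 exonic bases. It was followed by Hist1h2bl at 38.6 and Hist1h2ao at 31.6 RPM per kb, ahead of Hist1h2ai at 29.1 and Hist1h1c at 27.4 RPM per kb. The GENCODE transcripts of Hist1h2bl, Hist1h2ao and Hist1h2ai share 62.1%, 92.7% and 88.4% of their 100-base windows with transcripts of other genes. Single reads of this length from the shared windows cannot be placed on 1 gene. The matching share was 25.4% for Hist1h2bc and 5.1% for Hist1h1c. Across all 68 genes, 27 shared at least 50% of their windows, and 14 of the 33 tested genes did. How reads with several equal positions were counted is not given in the sources used here.

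The reach of the table's interval past the stem-loop was set beside the level. Intervals of 19 genes ran at least 100 bases beyond it, with a median of 1.35 RPM per kb (0.00552 to 27.4). For 25 genes the interval ended less than 100 bases past it, and the median was 0.813 RPM per kb (0.0195 to 31.6). No stem-loop was found in a model of the other 24 genes, whose median was 0.609 RPM per kb (0 to 64.7). Only GENCODE models were searched, so a gene whose models stop before the stem-loop falls in this last kind. Some of its intervals are short, such as Hist1h2bl with 381 bases and Hist1h4k with 312. This kind therefore does not show that a gene lacks the stem-loop. The 3 ranges overlapped over nearly their whole extent. The first kind included Hist1h1c, with 839 bases past the stem-loop, Hist3h2a with 1487 and Hist2h3c1 with 1167. The last kind gave 52.6% of all histone signal and included Hist1h2bc, whose interval (ENSMUSG00000018102, chr13:23684199-23692488) holds 2 exon blocks.

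**Figure D2:**
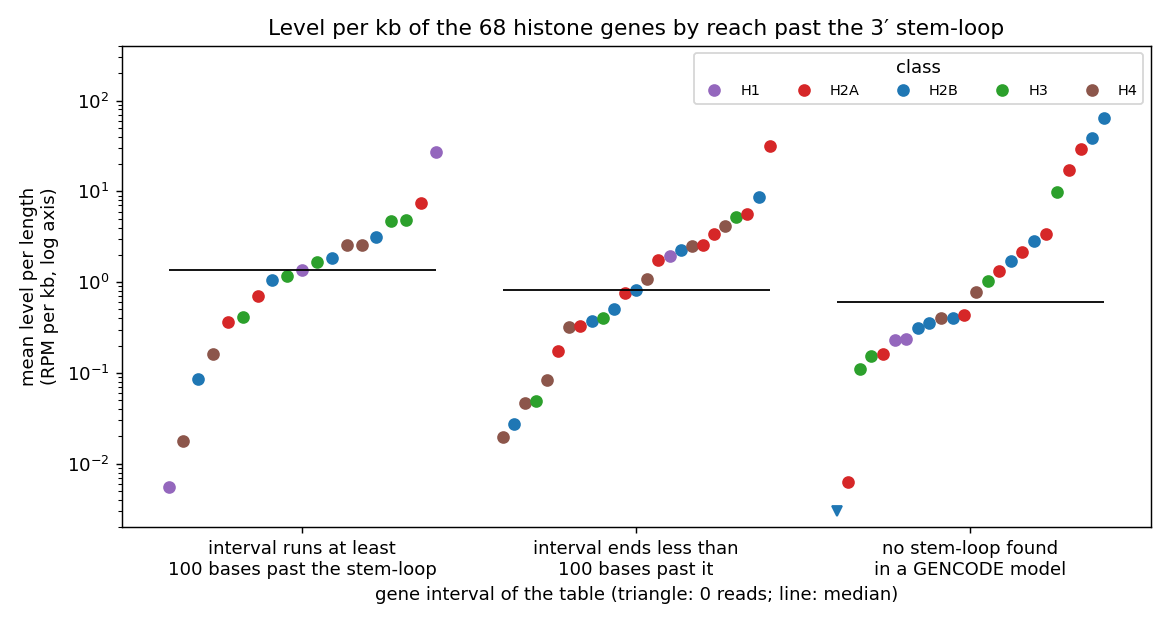
Mean level over the 12 hairpin libraries per kb of length (RPM per kb, log axis) for the 68 genes, split by how far the gene's interval runs past the 3′ stem-loop. Dots are genes coloured by class, lines are medians (1.35, 0.813 and 0.609 RPM per kb from left to right), and the triangle marks a gene with 0 reads. Each kind holds genes from under 0.02 to over 27 RPM per kb.

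Between groups, 33 of the 68 genes could be tested. A gene was tested where 3 or more of the 12 hairpin libraries reached 1 RPM. They were 3 H1, 10 H2A, 10 H2B, 6 H3 and 4 H4 genes. The other 35 averaged at most 0.837 RPM. The log2 RPM values of all 13134 genes that passed this filter were fitted with limma, p-values were adjusted over all of them by Benjamini-Hochberg, and an adjusted p under 0.05 was counted as a change. Of the 33 genes, 20 changed in at least 1 of the 4 comparisons of groups, as did 47.4% of all genes tested. Hist1h2bm and Hist1h2br reached 1 RPM only in the 3 controls with 5-aza, and Hist2h2aa1 would have missed the filter without them. These 3 genes were therefore tested because of the group in which they were highest. Hist2h2be would likewise have missed the filter without the Setdb1 hairpin libraries with 5-aza, where its mean was highest (1.06 RPM). Hist1h2ai and Hist1h2ao changed in all 4, 9 genes changed in 2 and 9 in 1. The hairpin and 5-aza comparisons share libraries, so their values are not independent of each other.

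Without 5-aza, 6 of the 10 H2A genes tested were higher with Setdb1 hairpins and none passed as lower, and their median log2 fold change was 0.33, against 0.03 for all genes tested. Over all classes 7 of 33 histone genes changed (21.2%), where the share over all genes was 12.4%. The 6 that rose compare with 9.01% of all genes, and the 1 that fell with 3.4%. Scaling moved this split, which was 5 higher and 3 lower with each library centred on its median, and 5 and 5 with quantile normalization. The remaining 4 H2A genes had log2 fold changes of -0.38 (Hist2h2aa2, adjusted p 0.0869), -0.32 (Hist1h2al, 0.0924), -0.16 (Hist2h2aa1) and 0.06 (Hist1h2ac). With the non-silencing and shSetdb1.4 libraries alone 2 genes passed, Hist3h2a and Hist1h2ao, where 432 of all 13000 genes tested did. Without Setdb1 hairpin replicate 1, the shSetdb1.6 library, 4 histone genes passed.

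Hist1h2ai (ENSMUSG00000071516, chr13:21716412-21717452) was the highest H2A gene. Its 3 control libraries were at 27.4, 31.2 and 31.1 RPM and its 3 Setdb1 hairpin libraries at 40.4, 34.7 and 39.4 RPM. All Setdb1 values lay above all control values (log2 fold change 0.35, SE 0.07, adjusted p 0.00522, and 0.0973 with the A and B hairpins alone).

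Hist1h2ao, a second H2A gene in the same part of chromosome 13 (chr13:21810465-21810944), was at 12.9, 16.5 and 16.7 RPM with control hairpins. With Setdb1 hairpins it was at 26.1, 19.8 and 21.7 RPM. The groups again did not overlap (0.55, SE 0.12, adjusted p 0.0121, and 0.0584 without Setdb1 hairpin replicate 1).

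Hist1h2ak and Hist1h2ap, both near 1 RPM in controls, had the largest fold changes of the class. Hist1h2ak was at 1.23, 1.57 and 1.53 RPM in controls and at 2.84, 2.04 and 2.36 RPM with Setdb1 hairpins (0.74, SE 0.14, adjusted p 0.00638). Hist1h2ap was at 0.914, 1.1 and 1.38 RPM and rose to 2, 1.77 and 1.85 RPM (0.75, SE 0.15, adjusted p 0.00784). With the A and B hairpins alone these adjusted p were 0.0965 and 0.134. Hist1h2ak differs from the other 3 in sequence sharing, with only 16% of its windows found elsewhere, against 92.2% for Hist1h2ap. Some windows of Hist1h2ai, Hist1h2ao and Hist1h2ap also occur in H2afx, a replacement H2A gene outside the clusters. How large a part of their shared windows this is was not counted. H2afx was at 36.9 ± 0.334 RPM in controls and 42.2 ± 3.15 RPM with Setdb1 hairpins (0.19, SE 0.06, adjusted p 0.0553).

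Hist3h2a, the H2A gene of the small chromosome 11 cluster (chr11:58954685-58956674), rose by less but with little spread. It was at 13.1 to 13.6 RPM in controls and at 17.1, 15.8 and 17 RPM with Setdb1 hairpins (0.31, SE 0.05, adjusted p 0.00322). Its interval overlaps exons of Trim17 on the same strand, and reads of the shared part cannot be assigned. The sixth H2A gene, Hist1h2ab, was at 2.19 to 2.6 RPM in controls and at 3.13 to 3.38 RPM with Setdb1 hairpins (0.40, SE 0.10, adjusted p 0.0289). The call was lost with median centring, quantile normalization, no filter, the replicate block and the A and B hairpins alone. It was also lost without control hairpin replicate 1 or A and without any 1 of the 3 Setdb1 hairpin libraries (highest adjusted p 0.191).

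The only gene that fell was Hist1h2bl, an H2B gene, from 14.4, 15.1 and 14.6 RPM to 11.8, 13.2 and 13.1 RPM (-0.21, SE 0.05, adjusted p 0.0175). The call was lost without control hairpin replicate A, without Setdb1 hairpin replicate 1, with these groups fitted alone and with the A and B hairpins alone (highest adjusted p over its alternatives 0.152). None of the 3 H1, 6 H3 and 4 H4 genes passed in limma, where 1, 2 and 1 of them had an unadjusted p under 0.05. The share of all genes at that unadjusted threshold is not given. Hist1h1c was at 42.8, 46.6 and 44.3 RPM in controls and at 41.1, 47.6 and 43.8 RPM with Setdb1 hairpins, so that the groups overlapped (log2 fold change -0.01, SE 0.08, adjusted p 0.932).

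**Figure D3:**
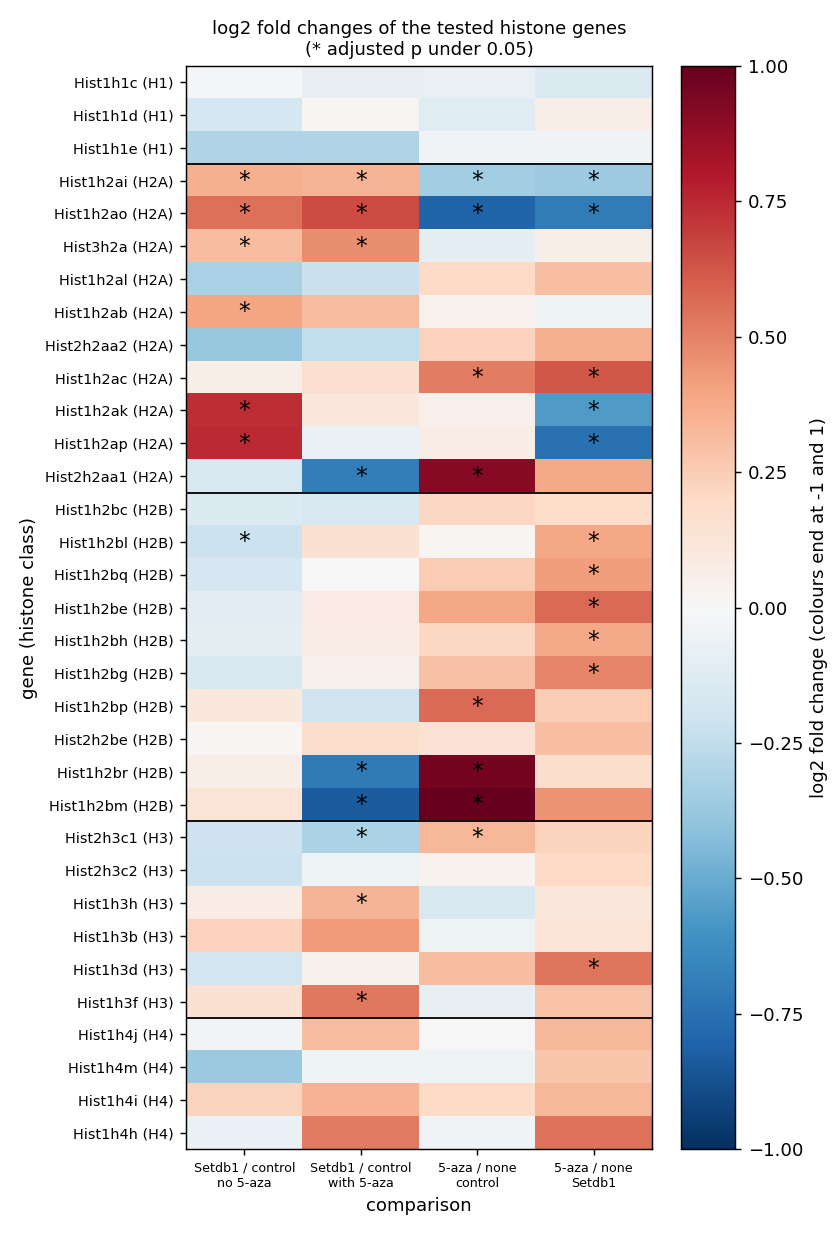
log2 fold changes of the 33 tested histone genes in the 4 comparisons, by class and mean level, with red for higher and blue for lower in the group named first, colours ending at -1 and 1, and asterisks for an adjusted p under 0.05. Asterisks on rises with Setdb1 hairpins without 5-aza (first column) are confined to the H2A block, and every H2B gene is above 0 in both 5-aza columns. Of these H2B genes, Hist1h2bm, Hist1h2br and Hist2h2be would have missed the filter without a group given 5-aza.

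With 5-aza present, the Setdb1 comparison gave a different mixture. Of the 33 genes 9 changed (27.3%, against 19.9% of all genes), 5 upward (14.5% of all genes) and 4 downward (5.37%). Among the 4, Hist1h2bm, Hist1h2br and Hist2h2aa1 met the filter through the controls with 5-aza, the higher side, so the filter itself added to the 27.3%. With the non-silencing and shSetdb1.4 libraries alone 5 histone genes passed, where 1327 of all 13000 genes tested did. Without control hairpin + 5-aza replicate A 4 histone genes passed, none of them lower. In that fit 31 histone genes were tested, since Hist1h2bm and Hist1h2br no longer met the filter. Higher were 3 H2A genes and 2 H3 genes. Lower were 1 H2A, 2 H2B and 1 H3 gene.

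Hist1h2ai was at 23.1, 23.4 and 23.9 RPM in controls with 5-aza and at 31, 29.5 and 28.5 RPM in Setdb1 hairpin cells with 5-aza (0.34, SE 0.07, adjusted p 0.0047). Hist1h2ao was at 9.25, 8.59 and 8.54 RPM against 15.6, 12.9 and 13 RPM (0.65, SE 0.12, adjusted p 0.00341). For Hist3h2a the values were 13.4, 11.9 and 12.3 RPM against 17.3, 17.2 and 17.4 RPM (0.46, SE 0.05, adjusted p 0.000182). These 3 genes were higher with Setdb1 hairpins in both conditions, and in neither condition did their groups overlap. H2afx, which shares some windows with the first pair, was higher here too, at 43.2 ± 2.13 against 33.8 ± 1.78 RPM (0.35, SE 0.06, adjusted p 0.00174). Hist1h2ak and Hist1h2ap did not pass with 5-aza and had log2 fold changes of 0.12 (SE 0.14, adjusted p 0.596) and -0.07 (SE 0.15, adjusted p 0.773).

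Among H3 genes, Hist1h3h was at 4.02, 4.11 and 4.49 RPM in controls with 5-aza and at 5.49, 4.96 and 5.53 RPM with Setdb1 hairpins and 5-aza (0.34, SE 0.08, adjusted p 0.00941, and 0.0939 with the A and B hairpins alone). Hist1h3f was at 0.871, 0.904 and 1.28 RPM against 1.4, 1.44 and 1.49 RPM (0.52, SE 0.17, adjusted p 0.0437), and this call was lost in 9 of the 12 fits that left out a library, all but those without control hairpin replicate 1 or A or control hairpin + 5-aza replicate B, and in 6 of 9 other alternatives (highest adjusted p 0.201). Hist2h3c1, an H3 gene of the chromosome 3 cluster, went the other way, from 10, 10.6 and 10.6 RPM to 7.8, 8.7 and 8.54 RPM (-0.32, SE 0.09, adjusted p 0.0274). The call was lost on leaving out replicate A or B of the controls with 5-aza, or replicate 1 or B of the Setdb1 hairpin cells with 5-aza (highest adjusted p 0.118). All of its windows are shared, with the other Hist2 H3 genes and overlapping transcripts.

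The H2B genes Hist1h2bm and Hist1h2br, and the H2A gene Hist2h2aa1, were also lower. Hist1h2bm was at 1.28, 1.36 and 1.71 RPM in controls with 5-aza and at 0.844, 0.88 and 0.717 RPM in Setdb1 hairpin cells with 5-aza (-0.83, SE 0.19, adjusted p 0.00967). Hist1h2br was at 1.31, 1.42 and 1.28 RPM against 0.978, 0.7 and 0.796 RPM (-0.71, SE 0.17, adjusted p 0.0118). Hist2h2aa1 was at 1.45, 1.7 and 1.45 RPM against 1.07, 0.76 and 1.03 RPM (-0.70, SE 0.18, adjusted p 0.0212), a call lost without control hairpin + 5-aza replicate A or B or Setdb1 hairpin + 5-aza replicate A, with the replicate block (0.0568) and with the A and B hairpins alone (highest adjusted p 0.0808). These genes met the filter through the controls with 5-aza, the higher side here, and with no filter their adjusted p were 0.0171, 0.0216 and 0.0363. As the next comparison shows, these genes stood apart in the control cells with 5-aza, which were above the other 3 groups.

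5-aza in control hairpin cells changed 8 of the 33 genes (24.2%, against 18.8% of all genes), 6 upward (1769 of the 13134 genes tested) and 2 downward (5.34%). Among the 6, Hist1h2bm, Hist1h2br and Hist2h2aa1 met the filter through the controls with 5-aza, so the filter itself added to the 24.2%. With quantile normalization 3 were higher and 5 lower. With the A and B hairpins alone 2 were higher and 2 lower, where 1471 of all 13000 genes tested changed. Leaving out replicate B of the controls with 5-aza gave 1 higher and 2 lower, and leaving out its replicate 1 or replicate A gave 5 genes each time, with Hist1h2bm and Hist1h2br below the filter in these fits. All 10 H2B genes had positive log2 fold changes, with a median of 0.27 against 0.04 for all genes, and 3 of them passed, of which Hist1h2bm and Hist1h2br entered through the group where they were high.

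The largest rise was that of Hist1h2bm (ENSMUSG00000096807, chr13:21722098-21722478), from 0.553, 0.53 and 0.539 RPM to 1.28, 1.36 and 1.71 RPM (1.41, SE 0.19, adjusted p 0.000466). Only 6.6% of its windows occur in other genes. Hist1h2br rose from 0.638, 0.848 and 0.604 RPM to 1.31, 1.42 and 1.28 RPM (0.96, SE 0.17, adjusted p 0.00253). Hist2h2aa1 rose from 0.956, 0.848 and 0.669 RPM to 1.45, 1.7 and 1.45 RPM (0.91, SE 0.18, adjusted p 0.0062). In each of the 3 genes every 5-aza library exceeded every library without it. Because the filter admitted them through these 5-aza libraries, the fit with no filter is given too, where their adjusted p were 0.00108, 0.00534 and 0.0118. Hist2h2aa1 is the table's name for the gene at chr3:96245538-96246115 (ENSMUSG00000063954), which GENCODE calls Hist2h2aa2, and 100% of its windows occur in other transcripts.

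Smaller rises were seen in 3 further genes. Hist1h2bp went from 0.999, 1.29 and 0.928 RPM to 1.57, 1.53 and 1.6 RPM (0.56, SE 0.14, adjusted p 0.0153), a call lost without replicate B of either group, with quantile normalization and with the A and B hairpins alone (highest adjusted p 0.124). Hist2h3c1 went from 7.69, 8.27 and 8.8 RPM to 10, 10.6 and 10.6 RPM (0.34, SE 0.09, adjusted p 0.0226), a call lost without control hairpin replicate 1 or A or control hairpin + 5-aza replicate A or B and with median centring or quantile normalization (highest adjusted p 0.0738). Hist1h2ac went from 1.61, 1.15 and 1.4 RPM to 2.24, 1.66 and 2.05 RPM, with the groups apart (0.52, SE 0.16, adjusted p 0.0468). This call was the least stable, lost in 8 of the 12 fits that left out a library, all but those without control hairpin replicate 1, control hairpin + 5-aza replicate A or Setdb1 hairpin + 5-aza replicate A or B, and in 6 of 9 other alternatives (highest adjusted p 0.193).

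The 2 genes that fell were the H2A genes Hist1h2ai and Hist1h2ao. Hist1h2ai fell from 27.4, 31.2 and 31.1 RPM to 23.1, 23.4 and 23.9 RPM (-0.35, SE 0.07, adjusted p 0.00444). Hist1h2ao fell from 12.9, 16.5 and 16.7 RPM to 9.25, 8.59 and 8.54 RPM (-0.80, SE 0.12, adjusted p 0.00102). Their groups did not overlap. H2afx was at 36.9 ± 0.334 RPM without and 33.8 ± 1.78 RPM with 5-aza (-0.13, SE 0.06, adjusted p 0.147).

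In Setdb1 hairpin cells, 5-aza changed 11 of the 33 genes (33.3%, against 28.9% of all genes). Of these, 7 rose (21.4% of all genes) and 4 fell (7.51%). With the shSetdb1.4 libraries alone 2 rose and 4 fell, where 2271 of all 13000 genes tested changed. All 4 that fell were H2A genes, and 5 of the 7 that rose were H2B genes. The 10 H2B genes again all had positive fold changes (median 0.38, against 0.06 for all genes). Of these, Hist2h2be would have missed the filter without the Setdb1 hairpin libraries with 5-aza, the higher side here. Cultures with and without 5-aza of the same hairpin and replicate deviated together in these cells. A difference between the hairpin of replicate 1 and that of replicates A and B can also give this. With that pairing as a block 16 histone genes passed, 11 higher and 5 lower. The block also raised the number over all 13134 genes, from 3792 to 5276. The block added Hist2h3c1 (adjusted p 0.016), Hist1h4h (0.0172), Hist1h2bc (0.0159) and Hist1h2al (0.0113) as higher and Hist1h1c (0.0166) as lower.

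Hist1h2bl, lower with Setdb1 hairpins alone, had the smallest adjusted p. It rose from 11.8, 13.2 and 13.1 RPM to 16.4, 17 and 16.2 RPM (0.39, SE 0.05, adjusted p 0.000513). The libraries with both treatments were the highest of all 4 groups for this gene. Hist1h2bq went from 4.82, 4.27 and 5.35 RPM to 5.98, 6.72 and 6.57 RPM (0.42, SE 0.10, adjusted p 0.00977), with 94.8% of its windows shared.

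The other risers lie in the second part of the Hist1 cluster (chr13:23531044-23934851). Hist1h2be (chr13:23583742-23621124) went from 3.03, 3.51 and 4.81 RPM to 5.45, 4.92 and 6.23 RPM (0.57, SE 0.15, adjusted p 0.0159). Hist1h2bg went from 1.55, 1.43 and 1.82 RPM to 2.15, 2.28 and 2.29 RPM (0.49, SE 0.12, adjusted p 0.0114). Hist1h3d, an H3 gene, went from 1.38, 1.66 and 1.97 RPM to 2.4, 2.24 and 2.59 RPM (0.54, SE 0.13, adjusted p 0.00931).
In these 3 genes, too, no 5-aza library was below a library without it. Hist1h2ac was at 1.34 to 1.51 RPM and rose to 1.9 to 2.65 RPM (0.62, SE 0.16, adjusted p 0.0163), and Hist1h2bh was at 2.86 to 3.67 RPM and rose to 3.82 to 4.48 RPM (0.38, SE 0.12, adjusted p 0.0416). The Hist1h2bh call was lost in 6 of the 12 fits that left out a library, those without control hairpin replicate A, control hairpin + 5-aza replicate B, Setdb1 hairpin replicate 1 or A, or Setdb1 hairpin + 5-aza replicate 1 or B, and in 5 of 9 other alternatives, among them median centring, quantile normalization and no filter (highest adjusted p 0.16). Hist1h2be was lost without Setdb1 hairpin replicate 1 or A or Setdb1 hairpin + 5-aza replicate B (highest 0.107), Hist1h2ac without Setdb1 hairpin replicate 1 or Setdb1 hairpin + 5-aza replicate B and with quantile normalization (highest 0.0749), and Hist1h2bg without Setdb1 hairpin replicate A (highest 0.0654). With the A and B hairpins alone these 3 calls and that of Hist1h3d (0.0728) were lost as well.

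The 4 that fell were Hist1h2ap, Hist1h2ao, Hist1h2ak and Hist1h2ai, in comparisons that share the Setdb1 hairpin libraries with those above. Hist1h2ap dropped from 2, 1.77 and 1.85 RPM to 1.19, 1.16 and 1.01 RPM (-0.74, SE 0.15, adjusted p 0.00463). Hist1h2ao dropped from 26.1, 19.8 and 21.7 RPM to 15.6, 12.9 and 13 RPM (-0.70, SE 0.12, adjusted p 0.00198). Hist1h2ak dropped from 2.84, 2.04 and 2.36 RPM to 1.82, 1.48 and 1.55 RPM (-0.57, SE 0.14, adjusted p 0.0124).
Hist1h2ai dropped from 40.4, 34.7 and 39.4 RPM to 31, 29.5 and 28.5 RPM (-0.36, SE 0.07, adjusted p 0.00278). After 5-aza, Hist1h2ai in Setdb1 hairpin cells lay within the range of controls without 5-aza, 27.4 to 31.2 RPM. These 4 calls held in every alternative run.

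Whether the effect of 5-aza differed between hairpins was tested by the interaction, in which 0 of 33 genes passed in limma, against 0.388% of all genes. An unadjusted p under 0.05 was found for 7 of the 33. The matching share of all genes is not given, so that count does not set these genes apart. The fit with limma voom on recovered reads also gave 0 genes passing. Hist1h2bl came closest, with an interaction of 0.36 (SE 0.07, adjusted p 0.0655), and passed with the replicate block (adjusted p 0.0386). For Hist1h2bm the interaction was -0.96 (SE 0.26, adjusted p 0.386), and for Hist1h2ap -0.82 (SE 0.21, adjusted p 0.318).

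The class sums followed these genes. Summed H2A levels were 76.7 ± 3.59 RPM with control hairpins, 66 ± 1.3 RPM with 5-aza, 96.3 ± 7.57 RPM with Setdb1 hairpins and 80.6 ± 2.7 RPM with both. No H2A sum of one group overlapped that of another except between control and Setdb1 with 5-aza, where the ranges were 72.6 to 79.1 and 78.3 to 83.5 RPM. H2B sums were 107.3 ± 3.88, 124.6 ± 3.51, 97.6 ± 9.98 and 116.8 ± 4.57 RPM in the same order of groups, and the H2B ranges with control and Setdb1 hairpins without 5-aza overlapped. The H1 sums were 51.9 ± 1.79, 49.3 ± 3.73, 50.8 ± 3.35 and 46.8 ± 3.92 RPM, with overlapping ranges. H3 sums were 24.9 ± 1.1 and 23.9 ± 1.56 RPM without 5-aza and 27.3 ± 0.827 and 27.5 ± 0.833 RPM with it, and H4 sums lay between 6.13 and 9.28 RPM in all hairpin libraries. These sums are given as a description, without a test.

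**Figure D4:**
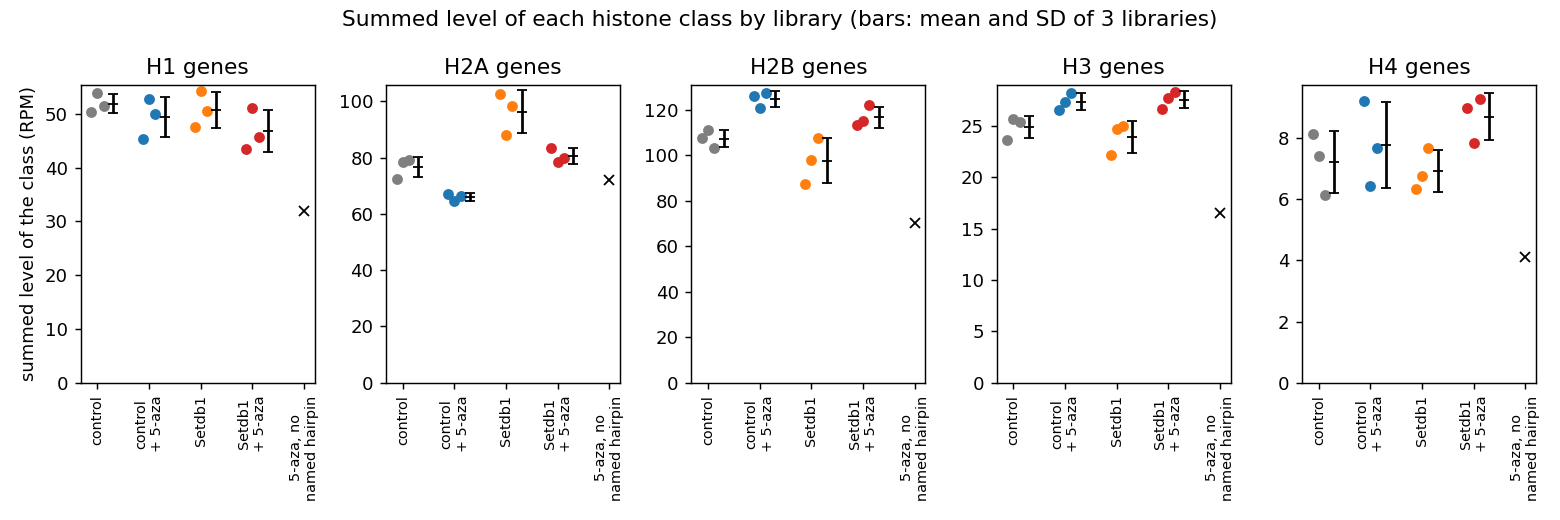
Summed level of the genes of each histone class in every library (RPM, linear axes from 0), where dots are libraries, bars give the mean and SD of 3 libraries, and crosses mark the ungrouped 5-aza library. H2A is highest with Setdb1 hairpins without 5-aza (87.9 to 102.6 RPM), where H2B has its lowest group mean (97.6 RPM).

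Many H2A and H2B genes of the clusters face each other head to head, with a short shared region between their starts. Of the members, 12 such pairs lay within 500 bases, all of them 1 H2A and 1 H2B gene, and both genes were tested in 4 pairs. The Hist1h2bl and Hist1h2ai rows are 268 bases apart. Hist1h2ai rose by 0.35 with Setdb1 hairpins while Hist1h2bl fell by 0.21 on the log2 scale, and with 5-aza in Setdb1 hairpin cells Hist1h2ai fell by 0.36 while Hist1h2bl rose by 0.39. With 5-aza present, the hairpin comparison gave the same sign for both, 0.34 and 0.15, the second of which did not pass. In the pair Hist1h2bq and Hist1h2ao, 265 bases apart, the same 5-aza comparison gave 0.42 and -0.70. In the pair Hist1h2ap and Hist1h2br, 167 bases apart, it gave -0.74 and 0.18, the second of which did not pass (adjusted p 0.434). In the other 3 comparisons this pair had equal signs, 0.75 and 0.07, -0.07 and -0.71, and 0.08 and 0.96 for Hist1h2ap and Hist1h2br.
The last pair, Hist1h2ac and Hist1h2bc, had fold changes of the same sign with 5-aza, 0.62 and 0.18 in Setdb1 hairpin cells and 0.52 and 0.20 in control cells. Hist1h2bc was at 73 ± 2.14 RPM with control hairpins, 84.2 ± 3.63 RPM with 5-aza, 66.7 ± 7.92 RPM with Setdb1 hairpins and 75.5 ± 3.61 RPM with both. It passed in none of the comparisons without the block (adjusted p 0.0717 and 0.0795 for 5-aza).

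**Figure D5:**
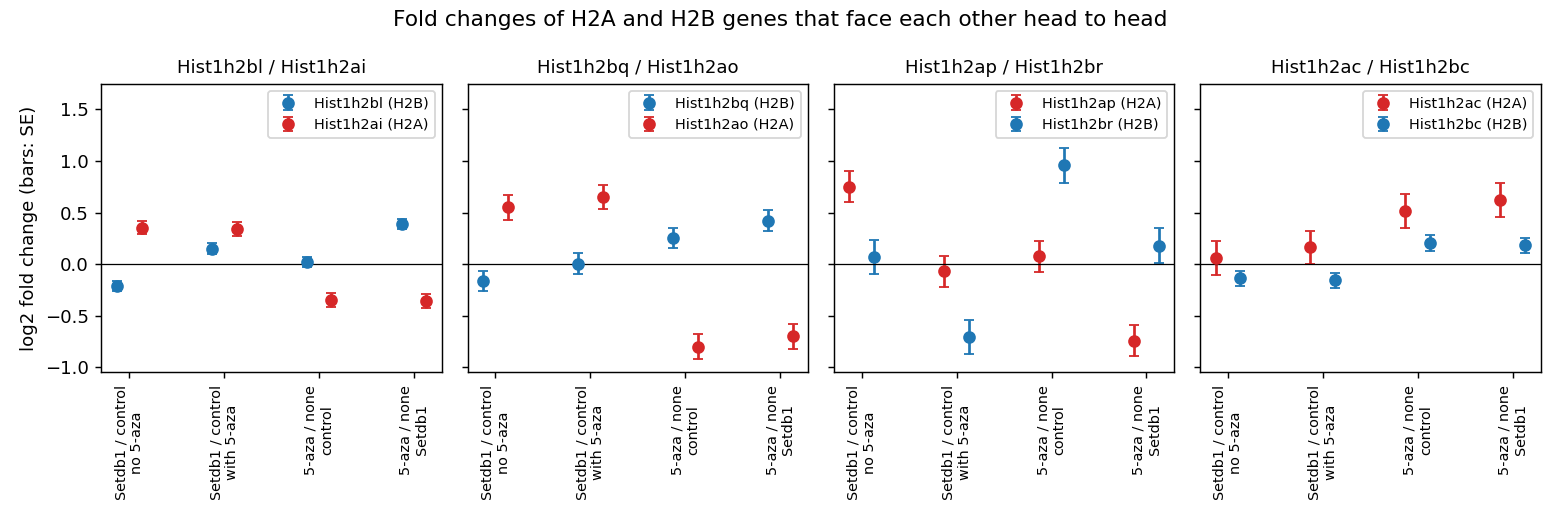
log2 fold changes (points, bars are SE) of the H2A gene (red) and the H2B gene (blue) in the 4 head-to-head pairs with both genes tested, for the 4 comparisons on the horizontal axis. In the first pair, 5-aza in Setdb1 hairpin cells gave -0.36 for Hist1h2ai and 0.39 for Hist1h2bl, and in the last pair it gave 0.62 for Hist1h2ac and 0.18 for Hist1h2bc.

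The region between 2 such genes is shown for Hist1h2bl and Hist1h2ai, which were called in opposite directions in 2 comparisons, and for the testis pair. Both are RefSeq promoters in GRCm38.p6 from 250 bases before to 50 bases after the start of the H2A gene: Hist1h2ai (H2ac13 in RefSeq), chr13:21716162-21716461 (+), and Hist1h2aa (H2ac1), chr13:23934187-23934486 (+). Capitals mark the CCAAT box, the TATAAA form of the TATA box and the H2B octamer, whose letters are ATTTGCAT, on either strand.
Hist1h2ai: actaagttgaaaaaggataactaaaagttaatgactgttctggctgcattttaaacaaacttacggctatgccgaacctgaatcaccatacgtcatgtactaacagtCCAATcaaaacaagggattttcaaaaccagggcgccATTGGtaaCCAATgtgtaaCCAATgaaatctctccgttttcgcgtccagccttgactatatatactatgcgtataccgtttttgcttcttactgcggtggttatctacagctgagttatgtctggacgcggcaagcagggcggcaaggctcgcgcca
Hist1h2aa: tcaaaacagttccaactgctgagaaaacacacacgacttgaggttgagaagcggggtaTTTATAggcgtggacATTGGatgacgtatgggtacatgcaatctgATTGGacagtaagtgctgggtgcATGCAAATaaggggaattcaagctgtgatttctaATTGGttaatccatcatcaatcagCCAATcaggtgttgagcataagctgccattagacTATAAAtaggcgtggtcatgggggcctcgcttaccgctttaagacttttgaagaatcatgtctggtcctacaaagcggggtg

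RefSeq promoters were matched to 62 of the 68 genes. CCAAT stood in 53 of them, compared with 37.4% of all 32851 RefSeq promoters of the same length, and in each of the matched H1, H2A, H2B and H3 promoters, but in 3 of 12 H4 promoters. TATAAA stood in 35 of the 62 (13.6% of all promoters). The octamer stood in 13, of which 7 belonged to H2A and 6 to H2B genes (1.74% of all promoters). Neither TATAAA nor the octamer occurs in the Hist1h2ai window above. A match is a description of the letters.

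Hist1h2aa, the testis H2A gene that is paired with Hist1h2ba, was below the filter and had 17, 13 and 9 reads in the control libraries. It had 20, 18 and 20 reads in controls with 5-aza, 0, 2 and 2 with Setdb1 hairpins, 1, 0 and 0 with both, and 0 in the ungrouped library. Every control library was above every Setdb1 hairpin library. Pooled over 3 libraries and scaled by depth, the ratio of control to Setdb1 was 9.64 without 5-aza (39 and 4 reads, exact 95% interval 3.48 to 37.1, counting error only). With 5-aza it was 59.5 (58 reads and 1 read, interval 10.3 to 2390). Without the filter on low values, the limma fit gave log2 fold changes of -3.01 and -4.41 (adjusted p 0.000104 and 5.56e-06). The gene was chosen for mention after its values were seen. Of its windows, 10.3% are shared.

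The other genes of the histone pathway were read from gene lists. Percentages in parentheses after a count are the share of all genes tested that passed in that direction. Among 11 replacement histone genes outside the clusters, 5 were higher with Setdb1 hairpins without 5-aza (9.01% of all genes) and none lower, and with 5-aza 6 were higher (14.5%) and 1 lower (5.37%). H2afz, the gene of H2A.Z, was at 26.5 ± 2.93 and 34.4 ± 4.3 RPM without 5-aza (0.38, SE 0.11, adjusted p 0.0379). With 5-aza, 1 was higher in control cells (H2afj, 22.9 ± 1.51 to 31.1 ± 2.18 RPM), where 1769 of all 13134 genes were, and in Setdb1 hairpin cells 1 was higher (21.4%) and 2 were lower (7.51%). H3f3b, a gene of H3.3, was at 204.4 to 230.8 RPM in controls.

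Of 22 tested genes for histone transcription, 3′ processing or decay, 5 were higher with Setdb1 hairpins (9.01% of all genes) and 10 in the same comparison with 5-aza (14.5%), and none was lower. They included Slbp, the stem-loop-binding protein, at 25.6 ± 1.35 and 30.4 ± 1.97 RPM without 5-aza (0.25, SE 0.06, adjusted p 0.0259). With 5-aza, 2 were lower in control cells (5.34%), Casp8ap2 and Npat, both needed for histone gene transcription. In Setdb1 hairpin cells 3 were higher (21.4%) and 3 lower (7.51%). Of 14 histone chaperone genes, 5 and 7 were higher with Setdb1 hairpins without and with 5-aza (9.01% and 14.5% of all genes), 3 were lower with 5-aza in control cells (5.34%), and in Setdb1 hairpin cells 1 was higher (21.4%) and 3 were lower (7.51%). Nasp, a chaperone of H3 and H4, was at 31.6 ± 2.46 RPM in controls, 42.6 ± 4.22 RPM with Setdb1 hairpins (0.43, SE 0.10, adjusted p 0.0159) and 24 ± 1.72 RPM in controls with 5-aza (-0.40, SE 0.10, adjusted p 0.0165).

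Genes of DNA replication, expressed at S phase, were read in the same way. Of 20, 10 were higher with Setdb1 hairpins (9.01% of all genes), with a median log2 fold change of 0.34 against 0.03 for all genes. With 5-aza present 18 were higher (14.5% of all genes), with a median of 0.45 against 0.05, and none was lower in either. 5-aza went with 7 lower in control cells (5.34%, median -0.29 against 0.04) and 2 lower in Setdb1 hairpin cells (7.51%, median -0.16 against 0.06), and none was higher. The summed level of the list was 1036 to 1088 RPM in controls, 753.6 to 911.4 RPM with 5-aza, 1234 to 1507 RPM with Setdb1 hairpins and 1037 to 1373 RPM with both. The part of cell cycle differences in the histone values was not tested, and in bulk RNA fewer cells in S phase and less histone RNA per cell cannot be told apart.

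Fibroblast markers summed to 23350 to 36840 RPM in the 12 libraries, and all 10 were tested. The other lists summed to 10.5 to 15.1 RPM for macrophages, 1.41 to 3.36 for endothelium, 175.3 to 230.5 for skeletal muscle (nearly all Acta1) and 39.6 to 67.2 for neural cells, with Tie1, Ckm and Sox10 at 3 reads or fewer. Of these, Csf1r was higher with 5-aza in both kinds of cells, Cd68 with 5-aza in Setdb1 hairpin cells and Tubb3 with Setdb1 hairpins without 5-aza. Of the epithelial list, Krt8 and Krt18 were tested and were higher in each of the 4 comparisons, and the list's sum was 2.64 to 3.16 RPM in controls, 8.57 to 10.6 RPM with 5-aza, 9.62 to 10.5 RPM with Setdb1 hairpins and 20.8 to 23.6 RPM with both. The part of these lists in the histone values was not tested.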

How the data were processed

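Poly(A) RNA libraries were made with Illumina TruSeq and read as 100-base single-end reads. The deposited table holds log2 RPM values for 13 libraries, as the authors named it, in mm10 coordinates per the labels' processing notes, which also name CASAVA 1.4. The study's text describes aligning fibroblast reads with TopHat to chromosome X of an older build, which is not the build of this table. The aligner behind the table, the counting and its use of strand are not given in the sources used here. Values were whole multiples of 1 read (100% within 0.05 read), and genes without a read held 0.9 read. Genes reaching 1 RPM in 3 or more of 12 libraries were fitted with limma 3.58.1 (lmFit, contrasts.fit, eBayes with trend, R 4.3.3), all 12 hairpin libraries together, over 5 two-sided contrasts with Benjamini-Hochberg adjustment over 13134 genes. The fit was also run on simulated independent counts with known changes. Those counts held no shared hairpins or shared sequence, so that run does not bear on the calls here. Levels are means ± SD, and fold changes have standard errors. Histone identifiers matched GENCODE vM21 in 61 genes, and 7 were matched by symbol and position. Shared windows are the percent of 100-base windows of a gene's GENCODE transcripts that are identical in transcripts of other genes. These transcripts can differ in length from the table's interval. Stem-loops were searched after the coding part as 6 paired bases around a 4-base loop.

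Named were all members changed in any contrast, the 2 highest per class and the 3 highest per kb. Members and lists were chosen with earlier results of these data known. Cultures of the same hairpin and replicate, without and with 5-aza, were correlated in their deviations from group means, across genes. With Setdb1 hairpins the values were 0.472, 0.634 and 0.413, and these cultures were taken as pairs. With control hairpins they were 0.586, 0.149 and 0.0999, where the last missed the limit of 0.1. The hairpin difference between replicate 1 and replicates A and B is present in both conditions and can raise these values without paired cultures. Between control and Setdb1 hairpins, replicates A and B correlated at 0.19 and -0.47 without 5-aza and at 0.686 and -0.0197 with it. Alternatives were other filters, log offsets, scalings, voom, the pairing as a block, the A and B hairpins alone, and each library left out. Figures used Python 3.11.15 and matplotlib 3.10.9.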

Additional observations from a re-analysis of the deposited data

Results flagged for a closer look

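The 5-aza library whose labels name no hairpin entered no comparison. Its summed H2A level was 72.2 RPM, above the 64.6 to 67.2 RPM of the control hairpin libraries with 5-aza. Its other class sums were below those libraries, at 31.9 RPM for H1, 70.4 RPM for H2B, 16.5 RPM for H3 and 4.12 RPM for H4. Of the 33 tested genes, 28 were below the lowest control library with 5-aza and 4 above the highest. Those 4 were Hist1h2ai at 30 RPM, Hist1h2ao at 16.4 RPM, Hist3h2a at 13.9 RPM and the H2B gene Hist2h2be at 1.86 RPM. This is 1 library of lower depth, with 114.5 RPM summed over the macrophage list against 10.5 to 15.1 RPM in the hairpin libraries, and the part of either in its values was not tested. Its name is PGK_5aza, and whether it is the PGK sample of the study's text, and so of another genotype, is not stated.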

How the results depend on the processing

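For the 35 gene results that passed, 736 values were computed under alternatives. In 647 the call and direction were kept, in 89 the call was lost and in 0 the direction turned. Of the 35, 17 kept their call under every alternative run and 18 lost it under at least 1. Of the 17, 13 were tested in all 12 fits that left out a library. The other 4, both calls of Hist1h2bm and of Hist1h2br, had only 9, since without any 1 of the controls with 5-aza these genes missed the filter, so those alternatives could not challenge them. The numbers of genes changed were 7 and 9 for Setdb1 hairpins without and with 5-aza, and 8 and 11 for 5-aza in control and Setdb1 hairpin cells. With a filter of at least 5 RPM, which left 13 histone genes, they were 4, 5, 3 and 5 in the same order. Of all 10677 genes left by that filter, 1328, 2223, 2035 and 3277 changed. With the non-silencing and shSetdb1.4 libraries alone the histone numbers were 2, 5, 4 and 6. Calls fell over all genes in that fit, to 432, 1327, 1471 and 2271 of 13000. In the main fit they were 1630, 2609, 2471 and 3792 of 13134. When each library was left out in turn, the histone numbers ranged from 4 to 8, from 4 to 11, from 3 to 9 and from 8 to 14. The interaction stayed at 0. Leaving out Setdb1 hairpin replicate 1 gave the 4 for hairpins without 5-aza, leaving out control hairpin + 5-aza replicate A the 4 for hairpins with 5-aza, and leaving out its replicate B the 3 for 5-aza in control cells. With the replicate block the numbers of histone genes were 6, 12, 10 and 16, and 1 for the interaction. Over all 13134 genes they were 1578, 3336, 3902 and 5276, and 169 for the interaction. In control cells and between hairpins, the shared replicate was not taken as a pairing. In control cells the block added Hist1h2be and Hist1h2bc to the genes higher with 5-aza. When a library was left out, mean class sums ranged over 49.3 to 50.3 RPM for H1, 77.8 to 81.3 for H2A and 110.2 to 113.8 for H2B. The ranges were 25.7 to 26.3 RPM for H3 and 7.51 to 7.79 for H4. Leaving out 1 of 12 values can move a mean by only a small part of the SD, so these ranges do not measure stability. Genes below the filter in an alternative, and the interaction with only the groups of 1 comparison fitted, gave no value. Untested genes had at most 64 reads in any hairpin library, which limits what could be seen of them.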
